A study of Mus musculus with 11 samples.

Results

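Replication-dependent histone genes supply the histones that package newly copied DNA. They were taken as every symbol of the count table made of H1f with a number from 1 to 5, or of H2ac, H2bc, H3c or H4c with any number, which gave 56 of 55291 symbols. The set held 5 linker genes (H1f1 to H1f5) and 51 core genes, by symbol 15 of H2A, 14 of H2B, 12 of H3 and 10 of H4. H2ac14, counted here among the H2A genes, is listed by RefSeq as a pseudogene. The libraries were RNA-seq of Lin-cKit+Sca-1+ bone marrow cells (LSK cells), the part of mouse marrow in which blood stem cells and their multipotent offspring are found. All mice were C57BL/6, and the genotypes were wild type (WT, n = 4), Phf6 knock out (KO, n = 3) and Phf6R274X Tg (Tg, n = 4), each library being 1 mouse per the labels. Phf6 encodes a chromatin protein with PHD-type zinc fingers that is mutated in human leukaemias, and the labelled allele carries a premature stop codon. The labels do not say how the knockout was made, what drives the Tg allele, whether the Tg mice keep an intact Phf6 gene, or how old the mice were.

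A nucleosome is built from pairs of the core histones H2A, H2B, H3 and H4, and linker histone H1 binds where DNA enters and leaves it. Replication-dependent histone genes are transcribed in S phase, when NPAT and its partners gather at the gene clusters and the cell doubles its chromatin. Their mRNAs end in a conserved stem-loop instead of a poly(A) tail; the stem-loop binding protein, SLBP, holds this structure during 3′ end cutting, export and translation, and the mRNAs are destroyed when S phase ends. Haematopoietic stem cells divide rarely and their progeny divide often, so histone mRNA in an LSK sort also depends on how many of its cells are copying DNA. In bulk libraries such as these, fewer cells in S phase and less histone mRNA per cell cannot be told apart.

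All 56 members matched a RefSeq gene of GRCm38.p6 (the assembly of mm10), and they lie in 5 clusters. The largest cluster held 28 members at chr13:23531044-23764412, and the others held 11 at chr13:21715711-21783397, 5 at chr13:22035122-22043658, 2 at chr13:23933725-23934913 and 10 at chr3:96219885-96270192. Reads of near-identical copies may have been split or dropped by the authors' counting, whose rule for multiply aligned reads is not stated. The level of any single member is uncertain to that extent, and divergent genes that lie close together may also share reads. Whether poly(A) RNA was selected is not stated either, so the counts may miss part of the stem-loop mRNA.

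The stem-loop is shown because it is the element that sets these mRNAs apart. A search of the GENCODE M21 transcripts for the stem-loop (GGNNCT, then the loop TTTN, then AGNNCC, without gaps, on the transcript strand) found a match in 34 of the 55 members with a model (61.8%) and in 124 of 141767 transcripts of all genes (0.0875%). A missing match says only that these letters are not in the model. The forms found are printed 5′ to 3′ with the loop bases in capitals.
20 members (H1f2, H1f3 and H1f4, 7 H2A, 5 H2B and 5 H3 genes): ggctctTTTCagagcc
5 members (H2bc3, H2bc12, H3c3, H3c6 and H3c7): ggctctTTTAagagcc
4 members (H4c3, H4c4, H4c6 and H4c8): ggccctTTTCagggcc
2 members (H4c9 and H4c14): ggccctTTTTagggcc
2 members (H4c2 and H4c11): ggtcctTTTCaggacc
1 member (H2ac20): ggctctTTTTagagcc
The stem letters of the 8 H4 genes differed from those shared by the linker, H2A, H2B and H3 genes, while the loop form TTTC occurred in both.

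The members were among the more abundant transcripts of these cells. They took 1.31% to 1.84% of all counts in the WT libraries (mean 1.58% ± 0.307, SD, n = 4), 1.57% to 1.70% in KO (1.64% ± 0.0655, n = 3) and 1.21% to 1.31% in Tg (1.25% ± 0.0431, n = 4). Every Tg library was below every WT and KO library, but the highest Tg share and the lowest WT share both rounded to 1.31%. After TMM scaling the summed members overlapped between these genotypes: Tg replicates 2 and 4, at 13697 and 13074 CPM (TMM-normalised counts), were above WT replicate 1 at 12803 CPM, and Tg replicate 2 was also above WT replicate 4 at 13185 CPM. Library totals ran from 20990446 to 45632018 counts, and LSK markers were present in every library, with Kit at 579 to 884 CPM and Ly6a, which encodes Sca-1, at 20 to 40.6 CPM. Phf6 itself was at 110 to 142 CPM in WT, 15.4 to 24.0 CPM in KO and 183 to 278 CPM in Tg, so the labels and the targeted gene went together.

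After a filter on low counts, 52 of the 56 members were tested. Those left out were H2ac1 and H2bc1, the testis-type H2A and H2B genes, with 5 and 27 counts over all 11 libraries, H2ac18 with 6 counts, and H3c14 with 0. H2ac14, H2ac19 and H3c15 passed the filter at under 2 CPM in each group's mean. Levels of different genes were compared per kilobase of the RefSeq gene span, leaving out H2bc4 and H2bc6, whose spans hold introns. On this scale the highest WT means were H4c4 with 2059 ± 511 CPM per kb, H1f2 with 1836 ± 129, H1f3 with 1399 ± 152 and H2bc8 with 1308 ± 245 (SD, n = 4). H4c6 (1239), H4c3 (1217), H1f1 (1207) and H2bc3 (1186) followed, and, apart from the step from H1f2 to H1f3, neighbours in this order differed by less than the larger of their SDs. The most abundant H2A and H3 genes per kb, H2ac4 (675 ± 170) and H3c3 (770 ± 228), stood below the leading H1, H2B and H4 genes. This order depends on the length used, because the annotation behind the counts is not stated. The spans of H4c4, H1f2 and H1f3 are 402, 725 and 776 bases, but their GENCODE M21 models have 1138, 1560 and 7425.

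**Figure D1:**
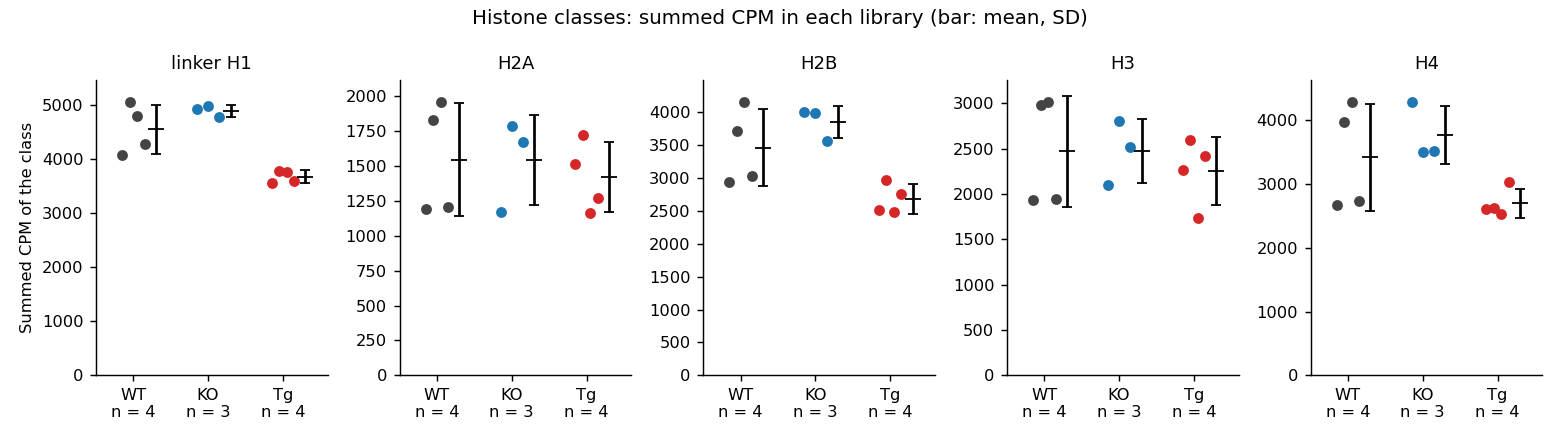
Summed CPM of each histone class (y axis, starting at 0) in the 4 WT, 3 KO and 4 Tg libraries; each point is 1 library, and the black bar gives the mean and SD. The linker sums of the Tg libraries (3563 to 3789) lie below all WT and KO sums, whereas the H2A and H3 sums of the 3 genotypes overlap.

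Linker histone mRNA was lower in Tg, and so were H2B and H4 mRNA in the mean, while the H2A and H3 sums of the genotypes overlapped. The summed linker level was 4555 ± 454 CPM in WT, 4897 ± 111 in KO and 3678 ± 118 in Tg. The 4 Tg libraries, at 3563, 3789, 3770 and 3590 CPM in replicates 1 to 4, all lay below the lowest WT library (4081) and the lowest KO library (4776). In WT, KO and Tg, summed H2B was 3457 ± 583, 3848 ± 247 and 2679 ± 233 CPM, and summed H4 was 3413 ± 834, 3764 ± 453 and 2693 ± 232 CPM. For both classes the Tg libraries lay below all KO libraries but overlapped WT, because WT replicates 1 and 4 were low (2934 and 3022 CPM for H2B, 2665 and 2733 CPM for H4). Summed H2A, in that order, was 1546 ± 405, 1542 ± 325 and 1418 ± 251 CPM, and summed H3 was 2470 ± 613, 2473 ± 354 and 2255 ± 371 CPM, with overlap among all 3 genotypes.

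The balance of linker to core mRNA did not separate the genotypes. The ratio of summed linker to summed core CPM was 0.428 ± 0.0572 in WT, 0.421 ± 0.00647 in KO and 0.410 ± 0.0463 in Tg, with overlapping ranges. The ratio of H2A and H3 together to H2B and H4 together was 0.580 ± 0.0352 in WT (0.548 to 0.626), 0.533 ± 0.121 in KO (0.395 to 0.614) and 0.683 ± 0.0892 in Tg (0.580 to 0.774). The Tg libraries 1, 2 and 4 were above every WT and KO library in that ratio, and Tg replicate 3 lay among them.

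Loss of Phf6 left the histone genes without a called difference from WT. In simulated data edgeR's test called 30% of 1.5-fold changes in this comparison, so a missing call does not show equal levels. No member was called in KO against WT by edgeR's quasi-likelihood test at a Benjamini-Hochberg adjusted p under 0.05, against 0.0175% of all tested genes called lower and 0.00582% called higher. DESeq2 and limma-voom called 0 members as well, and 1 member, H2bc8, was higher at an unadjusted p under 0.05 in edgeR, where 3.33% of all genes were higher and 3.75% lower. H2bc8, an H2B gene, stood at 607 ± 114 CPM in WT and 753 ± 50.1 CPM in KO, a log2 fold change of 0.31 (SE 0.138, adjusted p = 0.692). The class medians of the log2 fold change were 0.10 for linker, -0.04 for H2A, 0.13 for H2B, -0.02 for H3 and 0.15 for H4 genes, beside -0.01 over all 17183 genes tested. The linker, H2B and H4 medians were above 0 in all 21 alternative settings tried, and the H2A and H3 medians took either sign. H1f2 was the only member whose KO libraries (1471 to 1541 CPM) all lay above the WT libraries (1208 to 1420 CPM), with 3.79% of all genes doing so (and 3.71% the reverse, with 0 members), and its adjusted p was 0.71 in edgeR's test.

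**Figure D2:**
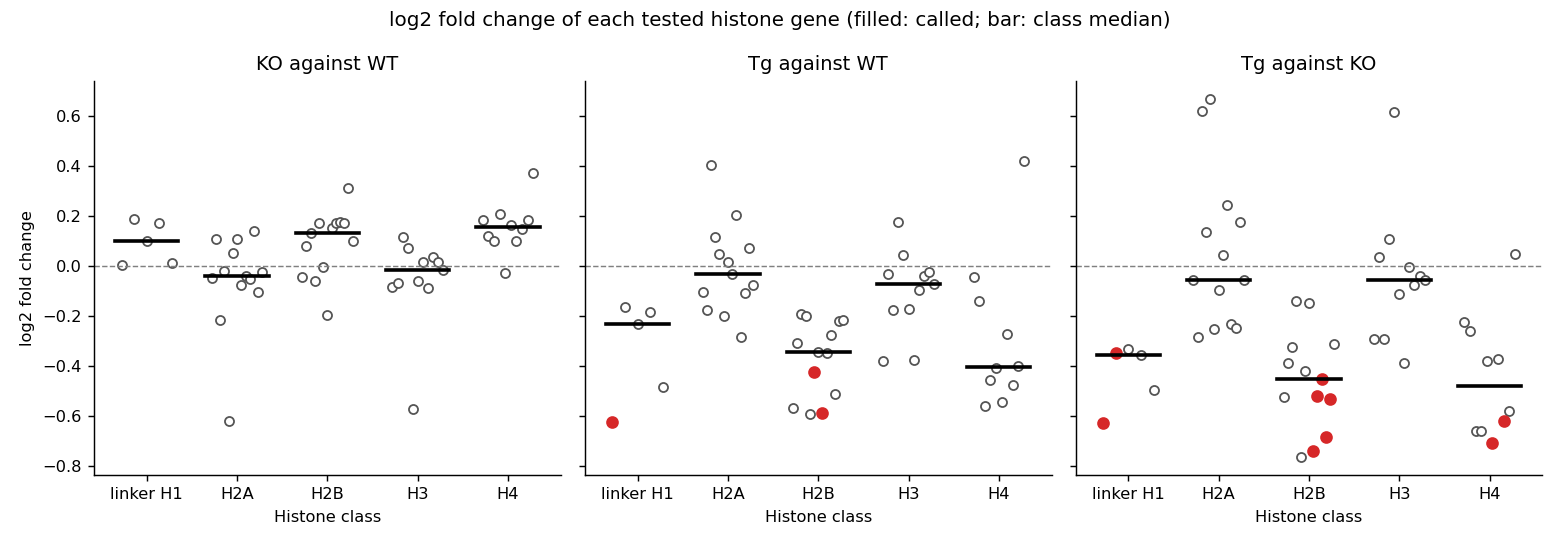
log2 fold change (y axis) of each of the 52 tested members by histone class in KO against WT, Tg against WT and Tg against KO. Filled points passed an adjusted p under 0.05 in edgeR's test (0, 3 and 9 members), and the bars are class medians; the linker, H2B and H4 medians lie below 0 in both Tg comparisons, and those of H2A and H3 lie near 0.

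In Tg against WT, 3 members fell: the linker gene H1f1 and the H2B genes H2bc3 and H2bc18. That is 3 of 52 members, where 2.39% of all tested genes were called lower, and 0 members were called higher, where 2.54% of all genes were. At an unadjusted p under 0.05, 15 members were lower (3 linker, 8 H2B and 4 H4 genes) and 0 were higher, where 11.1% of all genes were lower. In 6 members every Tg library was below every WT library (H1f1, H1f5, H2bc3, H2bc7, H2bc18 and H4c6), where 5.34% of all genes were, and in 0 members above, where 4.50% were. All 5 linker and all 13 H2B genes had a negative log2 fold change, as did 9 of 10 H4, 9 of 11 H3 and 7 of 13 H2A genes. The class medians were -0.23 for linker, -0.34 for H2B and -0.40 for H4 genes, against -0.03 for H2A, -0.07 for H3 and 0.01 over all genes. All linker and H2B genes kept the negative sign in each of the 21 alternatives, among them each choice of scaling and each library left out. The H2A median was above 0 in 3 of these and the H3 median in 2. No H2A or H3 gene was called in any of these settings. The members share libraries, and near-identical copies may share reads, so these counts describe the classes and are no test of a difference between them.

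H1f1 encodes H1.1, a linker subtype known from thymus, spleen and testis. Its level was 858, 1059, 930.2 and 750.3 CPM in WT replicates 1 to 4, 899, 992 and 814 CPM in KO replicates 1 to 3, and 503, 592, 610.2 and 629 CPM in Tg replicates 1 to 4. The highest Tg library was below the lowest WT and KO library. The log2 fold change was -0.62 in Tg against WT (SE 0.116, adjusted p = 0.0165 in edgeR's test), which is 35.1% lower, and -0.63 in Tg against KO (SE 0.124, adjusted p = 0.0170). Leaving out Tg replicate 1 raised the adjusted p against WT to 0.0550. The 250 bases before the start of H1f1 are shown because it is the linker gene that was called in both comparisons, with the CCAAT box and the TATA box (TATAAA) in capitals, 56 and 33 bases before the start.
H1f1, plus strand of chr13:23763418-23763667, GRCm38.p6: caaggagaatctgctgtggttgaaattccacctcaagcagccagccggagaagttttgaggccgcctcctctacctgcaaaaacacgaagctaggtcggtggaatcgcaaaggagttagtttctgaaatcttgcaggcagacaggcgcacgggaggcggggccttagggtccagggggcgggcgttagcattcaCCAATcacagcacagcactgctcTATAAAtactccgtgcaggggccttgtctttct

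The other linker genes were lower in Tg by smaller amounts that did not pass the test against WT. H1f5 stood at 645 ± 116 CPM in WT (518 to 751), 650.2 ± 24.6 in KO and 461 ± 54.7 in Tg (395 to 517), without overlap between Tg and WT, at a log2 fold change of -0.48 (SE 0.128, adjusted p = 0.0533 in edgeR's test). H1f2, the most abundant linker gene, stood at 1331 ± 93.5, 1514 ± 38.0 and 1188 ± 82.0 CPM in WT, KO and Tg. H1f3 stood at 1086 ± 118, 1164 ± 58.1 and 924 ± 72.2 CPM, and H1f4 at 593 ± 84.3, 667 ± 31.2 and 522 ± 28.6 CPM. For H1f2, H1f3 and H1f4 the Tg and WT libraries overlapped, and the log2 fold changes against WT were -0.16, -0.23 and -0.19.

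H2bc3 and H2bc18 encode H2B and lie in different clusters, on chromosomes 13 and 3. H2bc3 was at 508, 609, 696 and 513 CPM in the WT libraries, 698, 640.0 and 597 CPM in KO, and 342, 427, 365 and 411 CPM in Tg. Every Tg library was below every other library, and the log2 fold change was -0.59 against WT (SE 0.116, adjusted p = 0.0197 in edgeR's test, 33.5% lower). The adjusted p was 0.0539 without WT replicate 2 and 0.0668 without Tg replicate 1. H2bc18 was at 124, 155, 182 and 138 CPM in WT, 155, 146 and 146 CPM in KO, and 110.2, 123, 106 and 107 CPM in Tg, a log2 fold change of -0.42 against WT (SE 0.107, adjusted p = 0.0453). The highest Tg library and the lowest WT library of H2bc18 were 123 and 124 CPM, and its call was lost in 9 of the 11 fits that leave out 1 library, at an adjusted p of up to 0.124.

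The sequences before these H2B genes are shown for the octamer ATTTGCAT, the site bound by the factor Oct-1 (gene Pou2f1). Pou2f1 was also called lower in Tg, and a link to the H2B levels was not tested. Searched on both strands in the 300 bases from 250 before to 50 after each start, the octamer was found in 7 of 13 H2B and 6 of 14 H2A promoter entries, in 0 of the linker, H3 and H4 entries, and in 1.74% of 32851 promoters of all genes. CCAAT was found in 88.2% of the 51 member entries and 37.4% of all promoters, and TATAAA in 58.8% and 13.6%. The windows of divergent H2A and H2B genes overlap, so their matches are not independent. Octamers, CCAAT boxes (ATTGG where on the other strand) and matches to TATAAA are in capitals.
H2bc3, plus strand of chr13:23746484-23746733, GRCm38.p6: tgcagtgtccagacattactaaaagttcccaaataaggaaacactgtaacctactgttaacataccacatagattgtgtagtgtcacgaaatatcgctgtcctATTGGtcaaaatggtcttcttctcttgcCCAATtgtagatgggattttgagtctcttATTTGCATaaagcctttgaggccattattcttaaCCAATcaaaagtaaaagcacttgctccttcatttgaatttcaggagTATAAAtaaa
H2bc18, plus strand of chr3:96269450-96269699, GRCm38.p6: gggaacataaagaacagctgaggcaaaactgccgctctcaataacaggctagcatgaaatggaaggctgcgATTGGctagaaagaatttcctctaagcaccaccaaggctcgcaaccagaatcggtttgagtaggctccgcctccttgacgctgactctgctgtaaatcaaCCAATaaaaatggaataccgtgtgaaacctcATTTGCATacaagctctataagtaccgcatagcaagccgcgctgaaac
The octamer lay 90 bases before the start of H2bc3 and 48 bases before that of H2bc18. The match to TATAAA lay 10 bases before the start of H2bc3, closer than the 33 bases of H1f1, and the letters printed for H2bc18 hold no match. H2bc7, H2bc9, H2bc11, H2bc13 and H2bc15 had no match in the window searched. In Tg against WT the log2 fold changes of H2bc7, H2bc11, H2bc13 and H2bc15 were -0.51, -0.57, -0.19 and -0.59. Those of H2bc6, H2bc8, H2bc12 and H2bc14, which have the octamer, were -0.27, -0.22, -0.31 and -0.20. Among H2A genes with the octamer, H2ac4, H2ac6, H2ac8, H2ac12 and H2ac20 had -0.28, -0.11, -0.08, 0.40 and -0.03. The values with and without the octamer thus overlapped.

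**Figure D3:**
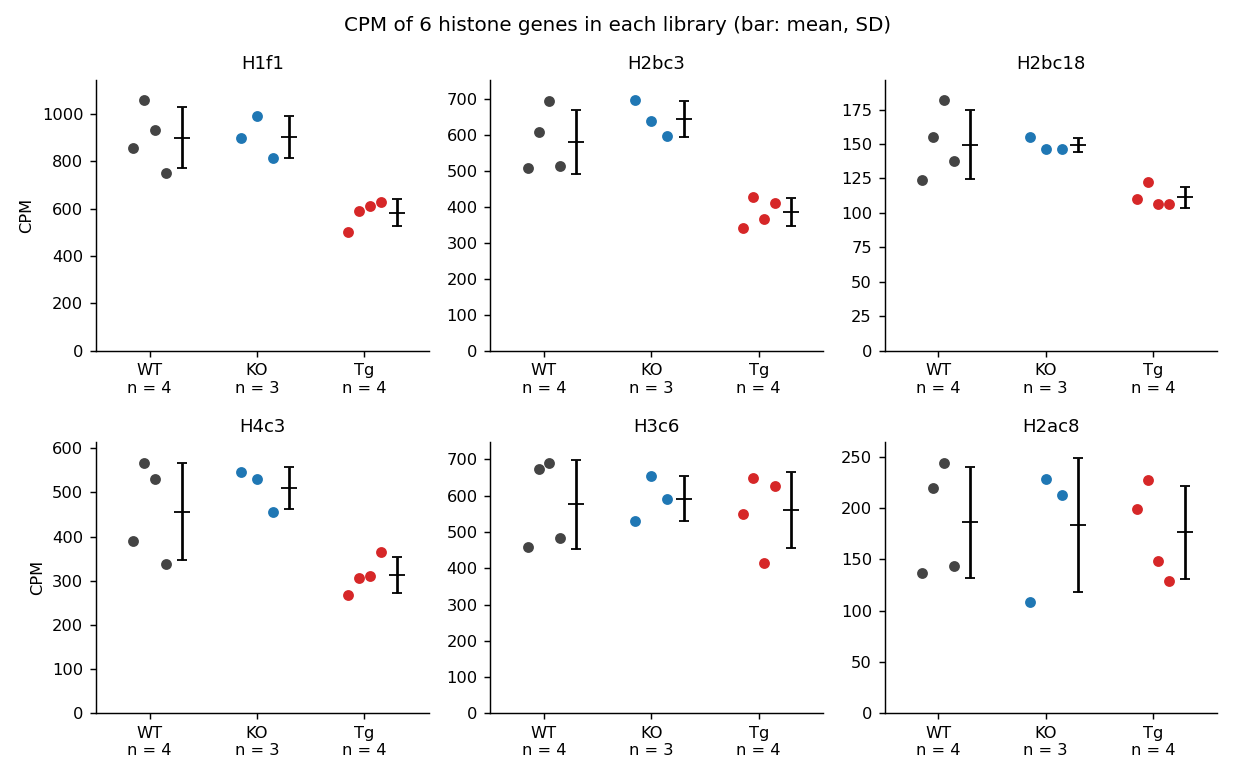
CPM (y axis, starting at 0) of H1f1, H2bc3, H2bc18, H4c3, H3c6 and H2ac8 in each library, with the mean and SD as a black bar. The Tg points of H1f1 and H2bc3 lie below all others, those of H4c3 overlap the lowest WT library (338 CPM), and those of H3c6 and H2ac8 spread over the same range as WT and KO.

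H4c3, an H4 gene of the largest cluster, was at 390.2, 568, 529 and 338 CPM in WT, 546, 529 and 457 CPM in KO, and 268, 307, 311 and 366 CPM in Tg. The Tg libraries were below all KO libraries, but Tg replicate 4 was above WT replicate 4. The log2 fold change was -0.55 against WT (SE 0.159, adjusted p = 0.0737 in edgeR's test) and -0.71 against KO (SE 0.170, adjusted p = 0.0361). H4c6, at 475 ± 109 CPM in WT and 341 ± 20.5 in Tg, did not overlap between these genotypes and had an adjusted p of 0.0880. H4c4, the most abundant H4 gene, was at 828 ± 205 CPM in WT, 886 ± 88.9 in KO and 686 ± 60.4 in Tg, with overlap. H4c9 was the single H4 gene with a higher mean in Tg than in WT, 109.6 ± 23.5 against 82.1 ± 30.7 CPM, at an adjusted p of 0.430 in edgeR's test.

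None of the H3 and H2A genes of highest level passed the test, and in each the genotypes overlapped. H3c6 was at 576 ± 123 CPM in WT, 591 ± 61.9 in KO and 560.0 ± 106 in Tg, a log2 fold change of -0.04 in Tg against WT (SE 0.168). H3c7 was at 421 ± 63.1, 426 ± 73.8 and 415 ± 85.9 CPM in the same order, a log2 fold change of -0.02 (SE 0.169). Among H2A genes, H2ac8 was at 186 ± 53.9, 183 ± 65.1 and 176 ± 45.2 CPM (log2 fold change -0.08, SE 0.269). H2ac4 and H2ac15, the most abundant H2A genes, had log2 fold changes of -0.28 (SE 0.198) and -0.20 (SE 0.177). H3c1 and H3c3 had the lowest values of their class at -0.38 each (SE 0.193 and 0.230), and their SEs were larger than those of H1f1 and H2bc3.

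The spread between libraries of 1 genotype also differed among the classes. The median within-genotype SD of log2 CPM was 0.140 over the 5 linker genes, 0.201 over 13 H2B, 0.274 over 10 H4, 0.323 over 10 H3 and 0.333 over 11 H2A genes of at least 10 mean CPM, beside 0.156 over 9597 genes of that level. A log2 difference of the size measured for H1f1 (-0.62) thus stood further outside the spread of the linker genes than outside that of the H2A genes. The most variable members were the H2A genes H2ac13 (SD 0.690) and H2ac12 (0.637) and the H4 gene H4c9 (0.483). H2ac13 was at 32.1, 67.4, 89.8 and 37.2 CPM in WT, 25.5, 77.4 and 65 CPM in KO, and 75.8, 84.6, 41.1 and 43.9 CPM in Tg. WT replicates 2 and 3, KO replicates 2 and 3 and Tg replicates 1 and 2 were its high libraries. The same WT libraries were the higher ones for the sum of every histone class.

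Compared with KO, 9 members were lower in Tg in edgeR's test, where 3.06% of all genes were called lower: the linker genes H1f1 and H1f2, the H2B genes H2bc3, H2bc4, H2bc6, H2bc7 and H2bc8, and the H4 genes H4c3 and H4c6. No H2A or H3 gene was called, 0 members were called higher (2.63% of all genes were), and all 9 lie in the largest chromosome 13 cluster. At an unadjusted p under 0.05, 22 members were lower and 0 higher, where 10.9% of all genes were lower. In 20 members every Tg library was below every KO library, where 11% of all genes were, and 0 members lay above, where 9.80% of all genes did. The 20 were the 5 linker genes, 9 H2B and 6 H4 genes. The class medians were -0.36 for linker, -0.45 for H2B and -0.48 for H4, against -0.05 for H2A, -0.05 for H3 and 0.01 over all genes. This comparison shares the Tg libraries with the one above, so the calls of the 2 comparisons are not independent.

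H2bc3 had the lowest adjusted p of these, with a log2 fold change of -0.74 (SE 0.124, adjusted p = 0.00796 in edgeR's test). It was called in every alternative, where the adjusted p was at most 0.0478. H1f2 differed by -0.35 (SE 0.0869, adjusted p = 0.0409), H2bc7 by -0.68 (adjusted p = 0.0281) and H2bc8 by -0.53 (adjusted p = 0.0468). H2bc8 was at 795, 766 and 697 CPM in KO and at 513, 589, 452 and 529.7 CPM in Tg, with no overlap, while its WT libraries (488 to 757 CPM) overlapped both. The count of 9 rested on single libraries: 1 member, H2bc3, was called without KO replicate 1, without KO replicate 2 or without Tg replicate 1, 2 were called without Tg replicate 2, 3 without KO replicate 3, and 4 without Tg replicate 3 or 4.

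The tool and GC content changed how many members passed, without adding H2A or H3 genes. DESeq2 called 10 members lower in Tg against WT (H1f1, H1f5, 4 H2B and 4 H4 genes) and 16 in Tg against KO (all 5 linker, 7 H2B and 4 H4 genes), where it called 4.87% and 4.95% of all the genes it tested lower. The median GC content of the gene models was 64.2% for H2A and 59.9% for H3 genes. It was 57.8% for H2B, 54.5% for linker and 54.5% for H4 genes. By this measure the classes that differed least were also the most GC-rich. The models differ in length, however: that of H1f3 has 7425 bases at 39.8% GC, and that of H4c12 has 312 at 65.4%. These values, and the correlations and offsets that use them, may thus not reflect the histone mRNAs themselves. Among genes that are no members, the median log2 fold change in Tg against WT ran from -0.02 at up to 45% GC to 0.12 at 60% to 65% GC (273 genes). In Tg against KO the medians of the same bins lay between -0.02 and 0.02. Over 65% GC, where several H2A and H3 members lie, 20 genes that are no members had higher medians. These were 0.32 in Tg against WT and 0.27 in Tg against KO. Over 48 members the Pearson correlation of the log2 fold change with GC content was 0.17 in Tg against WT and 0.26 in Tg against KO, as a description of genes that share libraries. With offsets that remove each library's trend with GC, 9 members were called lower in Tg against WT (H1f1, H1f5, 4 H2B and 3 H4 genes), where 2.79% of all genes were. Under these offsets the class medians in Tg against WT were -0.14 for H2A and -0.19 for H3, lower than without them, beside -0.22 for linker, -0.34 for H2B and -0.46 for H4 genes. H2ac4 and H2ac15 then had log2 fold changes of -0.46 and -0.43. In Tg against KO the H2A and H3 medians were -0.04 and -0.07.

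Most H2A genes lie head to head with an H2B gene and share the sequence between them, which allows both genes of a pair to be compared at 1 locus. There were 10 such pairs at most 300 bases apart (gaps of 163 to 280 bases), and in 8 both genes reached 10 mean CPM. In all 8, the log2 fold change of the H2B gene was below that of its H2A partner, in Tg against WT and in Tg against KO, which share the Tg libraries. In Tg against WT the log2 fold change was 0.07 for H2ac7 and -0.51 for its partner H2bc7. The log2 ratio of H2bc7 to H2ac7 lay between 0.744 and 1.07 in the WT libraries, was 1.66, 0.961 and 0.817 in KO, and was 0.0872, -0.0148, 0.515 and 0.611 in Tg. This was the only one of the 8 pairs whose Tg ratios all lay below the WT ratios, and the difference within pairs was not tested. The 173 bases between the starts of H2bc7 and H2ac7 are shown because both genes are read outward from them, with CCAAT boxes on either strand in capitals.
H2bc7 and H2ac7, plus strand of chr13:23574208-23574380, GRCm38.p6: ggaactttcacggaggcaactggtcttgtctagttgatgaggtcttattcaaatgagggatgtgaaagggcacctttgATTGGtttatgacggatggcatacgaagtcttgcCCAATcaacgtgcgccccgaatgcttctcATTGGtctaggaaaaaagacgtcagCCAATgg

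**Figure D4:**
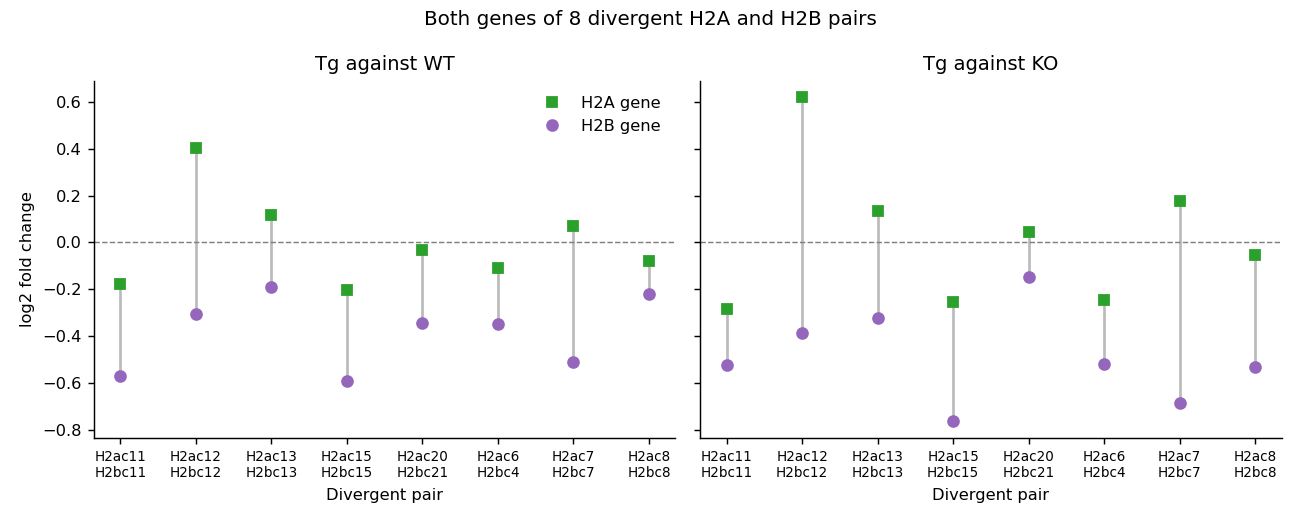
log2 fold change (y axis) of the H2A gene (square) and the H2B gene (circle) of 8 divergent pairs in Tg against WT and Tg against KO, joined by a line. In each pair the circle lies below the square in both comparisons.

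By cluster, the 28 members of the largest chromosome 13 cluster held 2 of the 3 genes called in Tg against WT and had 27 negative log2 fold changes (median -0.23). Of the 8 tested members of the chromosome 3 cluster, 4 had a negative log2 fold change (median -0.01), and H2bc18 was the one called there. The clusters differ in which classes they hold.

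The genes that make and process histone mRNA showed few called differences, SLBP being among them. Of 23 such genes, 2 were called lower in Tg against WT and 0 higher, where 2.39% and 2.54% of all genes were. Their list median was -0.08. Slbp, whose protein binds the stem-loop printed above, was at 121, 132, 127 and 122 CPM in WT, 127, 121 and 121 CPM in KO, and 92.3, 101, 104 and 99.3 CPM in Tg. All Tg libraries lay below all others, at a log2 fold change of -0.34 against WT (SE 0.0602, adjusted p = 0.0142 in edgeR's test) and -0.31 against KO (adjusted p = 0.0217). Its call against WT held with each library left out (adjusted p at most 0.0476), and that against KO was lost in 4 of 11 such fits. Pou2f1, which encodes the octamer-binding factor Oct-1, was at 141 ± 11.3 CPM in WT, 135 ± 10.8 in KO and 103 ± 10.8 in Tg, a log2 fold change of -0.45 against WT (SE 0.0899, adjusted p = 0.0207) and -0.39 against KO (adjusted p = 0.0413). Without 1 library its adjusted p reached 0.0708 against WT (without Tg replicate 1) and 0.166 against KO (without KO replicate 1). Npat, whose protein switches on histone transcription, was at 84.3 ± 3.99, 82.4 ± 3.19 and 82.9 ± 4.69 CPM in WT, KO and Tg, and Casp8ap2, a partner at the same sites, stood at 101 ± 10.6, 91.2 ± 7.56 and 98.0 ± 9.79 CPM. In KO against WT, 0 of the 23 were called by edgeR, DESeq2 or limma-voom, and 1 passed an unadjusted p under 0.05 in edgeR. At that level 3.33% of all genes were higher and 3.75% lower.

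Of 16 genes for histone mRNA decay, Tut4, a terminal uridylyltransferase that tags mRNA for degradation, was the one called in Tg against WT, also lower (log2 fold change -0.43, SE 0.103, adjusted p = 0.0378 in edgeR's test, and up to 0.120 with 1 library left out). The list median was -0.04, and 2.39% of all genes were called lower in Tg against WT. At an unadjusted p under 0.05 in edgeR, 2 of the 16 were higher and 2 lower, where 10.9% and 11.1% of all genes were. Of 12 histone variant genes transcribed outside S phase as well, H2az2, which encodes an H2A.Z, was lower in Tg at 70.2 ± 3.62 CPM than in WT at 84.5 ± 5.60 and KO at 92.9 ± 3.70 CPM (adjusted p = 0.0444 and 0.0106, and up to 0.134 and 0.0606 with 1 library left out). Cenpa, the centromeric H3 variant, passed the test in Tg against KO (log2 fold change -0.55, adjusted p = 0.0460, and up to 0.191 with 1 library left out), and its value against WT was -0.42 (adjusted p = 0.0889). The 12 variant genes went both ways, with medians of -0.15 against WT and -0.02 against KO. At an unadjusted p under 0.05 in edgeR, 3 were lower and 1 higher against WT, and 2 lower and 2 higher against KO. DESeq2 called 3 lower and 1 higher against WT. H2aj was at 34.8 to 50.2 CPM in WT, 37.7 to 47.8 in KO and 47.7 to 73.7 in Tg. Of 26 histone chaperone genes, 0 were called in either Tg comparison by edgeR or limma-voom, while DESeq2 called 2 lower against WT and 0 against KO. DESeq2 called 4.87% and 4.95% of all genes lower in these comparisons. At an unadjusted p under 0.05 in edgeR, 4 of the 26 were lower against WT and 3 against KO. Of all genes, 11.1% and 10.9% were lower at that level. Hjurp, the chaperone of CENP-A, was at 495 ± 29.5 CPM in WT and 418 ± 17.6 in Tg (adjusted p = 0.0728 in edgeR's test).

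**Figure D5:**
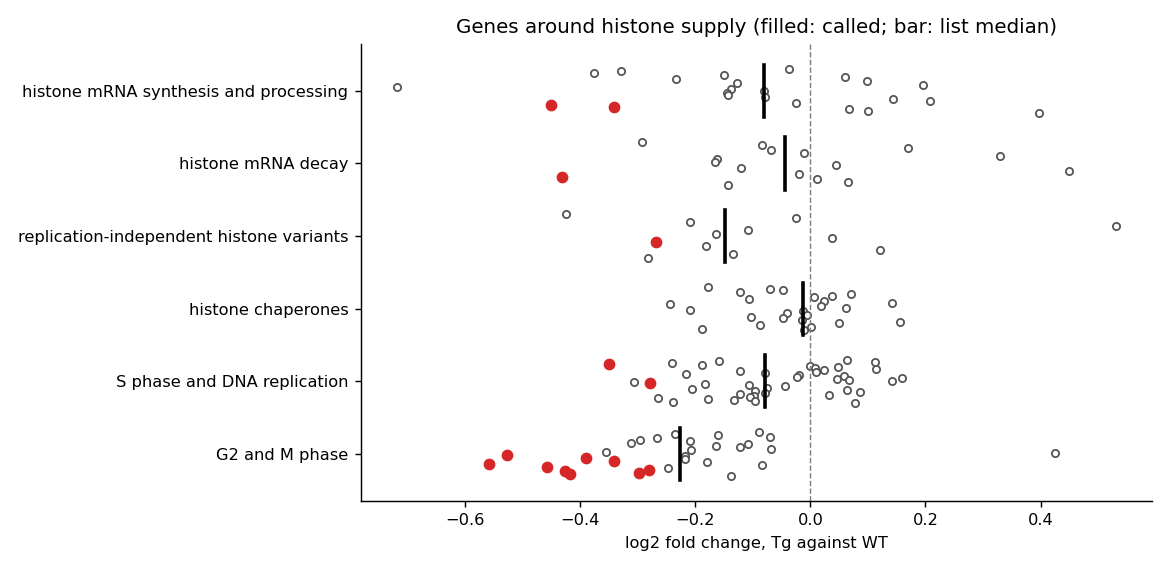
log2 fold change in Tg against WT (x axis) of each gene of 6 lists around histone supply and the cell cycle; filled points were called in edgeR's test and the bars are list medians. Called genes lie to the left of 0 in all lists that hold any, and G2 and M phase genes hold most of them (9 of 30).

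Genes of the cell cycle were read beside the histones because histone mRNA rises and falls with S phase. Of all tested genes, edgeR called 2.39% lower and 2.54% higher in Tg against WT, and 3.06% and 2.63% in Tg against KO. Of 43 S phase and DNA replication genes, 2 were called lower in Tg against WT and 0 higher: Pcna, the sliding clamp of the replication fork (log2 fold change -0.28, SE 0.0706, adjusted p = 0.0470 in edgeR's test), and Clspn, the checkpoint adaptor Claspin (-0.35, SE 0.0615, adjusted p = 0.0141). Pcna lost its call in each of the 11 fits without 1 library (adjusted p up to 0.108), and Clspn in 0 of them. The list median was -0.08, smaller than the medians of the linker, H2B and H4 classes. Of 30 G2 and M phase genes, 9 were called lower and 0 higher, with a median of -0.23, among them Top2a (-0.43, adjusted p = 0.0187) and Ndc80 (-0.56, adjusted p = 0.0105). Against KO the same lists held 2 and 10 genes called lower, with medians of -0.14 and -0.32. In 16 of the 43 and 19 of the 30 genes every Tg library was below every KO library. The histone members held 20 of 52 by this measure, and 11% of all genes met it. Against WT it was met by 4 and 11 genes of the lists and by 5.34% of all genes. In 0 genes of either list did the Tg libraries all lie above, where 9.80% of all genes did against KO and 4.50% against WT. In KO against WT, 0 genes of either list were called by edgeR, DESeq2 or limma-voom, with 0 at an unadjusted p under 0.05 in edgeR, and the medians were 0.09 and 0.06.

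Some markers of other cells also differed between the genotypes. The summed level of 6 granulocyte-monocyte progenitor markers was 1384 to 3515 CPM in WT, 3762 to 4884 CPM in KO and 4829 to 24022 CPM in Tg. Mpo, myeloperoxidase, alone ran from 948 to 2683 CPM in WT, from 2919 to 3833 CPM in KO and from 3451 to 15322 CPM in Tg. For this sum and for Mpo every KO library was above every WT library, and the KO range of the sum and of Mpo overlapped that of Tg. The summed level of 6 B cell markers was 54.9 to 506 CPM in WT, 109 to 254 CPM in KO and 27.4 to 92.5 CPM in Tg, and that of 6 mature neutrophil markers was 7.90 to 90.0, 22.0 to 57.1 and 42.9 to 590.0 CPM. The higher neutrophil sum in Tg rested on S100a8 and S100a9. S100a8 was at 2.18 to 40.2 CPM in WT and 27.6 to 473 CPM in Tg. S100a9 was at 3.08 to 37.8 CPM in WT and 11.6 to 113 CPM in Tg. Camp, Ltf and Mmp8 overlapped between WT and Tg without such a rise. The log2 fold change of Camp in Tg against WT was 0.18 (SE 0.727). Ly6g, which marks mature neutrophils, was at 0 in all Tg libraries and at up to 0.400 CPM in the others. The part of these cells in the histone levels was not tested.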

How the data were processed

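RNA of sorted LSK cells, 1 mouse per library, was sequenced with paired reads, per the labels. The authors deposited 1 table of raw read counts per gene symbol for all 11 libraries. FastQC, Trimmomatic, STAR, HTSeq and the build mm10 are listed, without versions, in the submitters' processing notes. The annotation, the strand setting and the treatment of multiply aligned reads are not stated. All table columns of counts were used. Of 55291 symbols, 24894 had 0 counts in every library and 17183 passed filterByExpr and were tested. All libraries were fitted together in edgeR 4.0.16 (R 4.3.3) with TMM factors, the quasi-likelihood test, no covariate and Benjamini-Hochberg adjustment over all genes tested (threshold 0.05), at a common biological coefficient of variation of 0.272 and 8 residual degrees of freedom. The SE of a log2 fold change is its size over the square root of F. CPM values use TMM factors and are given as mean ± SD, and p-values measure the spread between these mice.

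The members follow from their symbols. The members and the gene lists were chosen with earlier results of these data known. Genes set to be named were Phf6, the 5 linker genes and the 4 most abundant members of each core class. To these came all members called in any comparison and the 3 of lowest p in each. Of each list they were the called genes with up to 4 of lowest p, but the text names only some of these list genes. Of the G2 and M phase genes called, it names Top2a and Ndc80. Members named outside this rule, such as H2ac7, H2ac12, H2ac13 and H4c9, and Npat and Casp8ap2, were singled out after their values were seen.

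Alternatives were DESeq2 1.42.0, limma-voom (limma 3.58.1), RLE factors, library totals, no filter, at least 2 CPM in 3 libraries, only the groups compared, a replicate block and each library left out; GC-corrected offsets and TMM factors from genes other than members were chosen after seeing the data. Replicate numbers did not pair the libraries: 0 of 10 same-numbered pairs had a correlation of deviations over 0.1 (-0.245 to 0.0959). Gene positions and promoters are RefSeq's for GRCm38.p6 (50 members with an entry), and transcript models are GENCODE M21's, whose older symbols were matched through RefSeq synonyms at the same position for 55 members. The fitting code was tested on simulated data with 50 changed genes at each fold size. In KO against WT it called 10% of 1.3-fold, 30% of 1.5-fold and 80% of 2-fold changes. In Tg against WT it called 6%, 30% and 76% of them. A missing call at the smaller sizes therefore does not show equal levels.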

Additional observations from a re-analysis of the deposited data

How the results depend on the processing

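Of the member counts, 3 lower in Tg against WT became 10 with DESeq2 (which called 4.87% of all genes lower, against 2.39% in edgeR), 9 with GC-corrected offsets (2.79% of all genes) and 0 to 4 with 1 library left out (0 without Tg replicate 1 and 1 without WT replicate 2). The 9 lower in Tg against KO became 16 with DESeq2 (4.95% of all genes, against 3.06%) and 1 to 12 with 1 library left out. With the replicate block 1 member was called lower in each comparison, H1f1 against WT and H2bc3 against KO; since the numbers do not pair the libraries, that fit adds terms without a known meaning, and 1 of 11 libraries correlated best with its own number. The count of 0 in KO against WT was 0 in every alternative, and the linker and core medians moved by less than the spread between replicates (0.122 and 0.246 on the log2 scale). Log2 fold changes near 0 changed sign with 1 library left out. In Tg against WT they ran from -0.22 to 0.0054 for H2ac6 (positive without WT or Tg replicate 3), from -0.22 to 0.071 for H2ac8, from -0.14 to 0.074 for H3c6 and from -0.10 to 0.11 for H3c7. In Tg against KO they ran from -0.32 to 0.13 for H2ac8, which was also 0.13 with the replicate block, from -0.15 to 0.040 for H3c6 and from -0.18 to 0.099 for H3c7. Over all alternatives of the single genes named, 264 values no longer passed the threshold and 33 newly passed it; the cause was not tested. Depth allows a gene at 0 counts to lie at up to 0.0657 to 0.143 CPM, for counting error only.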
